A study of Caenorhabditis elegans with 6 samples.

Results

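The major sperm protein (MSP) genes of *Caenorhabditis elegans* were examined in whole-body RNA of untreated L4 hermaphrodites, 3 libraries of a glna knockout and 3 libraries of wild type (strain N2). Members were taken by name, as every gene of the deposited table whose WormBase symbol is msp followed by a number, which gave 35 genes of the 21507 listed. Of these, 30 are listed as protein-coding and 5 (*msp-37*, *msp-42*, *msp-52*, *msp-58* and *msp-71*) as pseudogenes; the Ensembl annotation lists *msp-58* as protein-coding. The filter on low values, a mean of at least 10 normalised counts over the 6 libraries, was passed by 33 members. *msp-32* and *msp-37* did not pass and are given by their values only. The glna genes encode glutaminases, which turn glutamine into glutamate and ammonia. The labels name neither the deleted glna genes nor their alleles. They do not say that replicates were separate cultures, so p-values measure the spread among these libraries, and that spread may be technical.

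MSP is the small cytoskeletal protein with which nematode sperm crawl: it polymerises into filaments that push the pseudopod forward, in a cell that does without an actin-based motor. The protein is also released from sperm and acts as a signal that prompts oocytes to mature and sheath cells to contract. MSP genes are transcribed in spermatocytes, and in hermaphrodites this happens in the larval gonad around the L4 stage, before the germ line switches to oocytes. In spermatocytes the protein is packed into fibrous bodies, which are attached to membranous organelles.

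Reads assigned to genes numbered between 18443661 and 19861540 per library. Knockout replicate 1 stood apart: 3.58% of its reads lay on ribosomal RNA genes, with at most 0.763% in any other library, and 13.65% lay on its 10 most abundant genes, with at most 6.60% in any other. The mean level in the knockout was 12.6% of the wild-type mean for *glna-2*, 18.1% for *glna-3* and 58.9% for *glna-1*, and for each of these genes every knockout library lay below every wild-type library. Because the RNA is of whole animals, fewer spermatocytes and less MSP RNA in each cannot be told apart.

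The members lay on chromosome II (15 genes) and chromosome IV (20 genes). With a new cluster started wherever neighbouring starts were more than 100000 bases apart, they formed 7 clusters, lettered here A to G (coordinates of the deposited table, WBcel235). On chromosome II these were cluster A from 4785861 to 5013275 (8 genes), cluster B from 5115102 to 5200222 (4 genes) and cluster C from 5797065 to 5810342 (3 genes). On chromosome IV they were cluster D from 5055593 to 5065153 (3 genes), cluster E from 5260554 to 5316944 (7 genes), cluster F from 9688982 to 9895033 (7 genes) and cluster G from 10095400 to 10144175 (3 genes).

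The genes were compact and alike in build. All 35 have a single exon in the Ensembl annotation of the same build, with 20 on the plus and 15 on the minus strand. Of the 31 with a coding sequence there, 28 share a coding length of 384 bases, the stop codon included. The exceptions were *msp-74* and *msp-58*, each at 234 bases, and *msp-32* at 360 bases. The deposited table assigns the MSP domain to 31 members, and *msp-37*, *msp-52*, *msp-71* and *msp-74* carry no such assignment. Of the members, 5 overlap another annotated gene (*msp-33* with *gst-9*, *msp-31* with *aagr-2*, *msp-45* with *srb-13*, *msp-38* and *msp-37* with *dhs-12*), and among these *msp-37* alone overlaps an exon of its partner. The labels do not say that strand was kept. How reads that match several similar copies were counted is not given in the sources used here, so the division of reads among members is less certain than their sum.

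Levels were compared between members per length, as recovered reads per kilobase of the deposited gene length and per 1e6 assigned reads (RPKM). Among the 29 protein-coding members that passed the filter, mean RPKM over the 6 libraries ran from 14.4 for *msp-63* to 703 for *msp-31*, with a median of 241. The 4 pseudogenes that passed ran from 5.45 for *msp-58* to 44.3 for *msp-71*. Of all members, 16 were among the 500 genes of highest RPKM in the whole table and 0 were among the first 100.

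*msp-31* (R05F9.13; chromosome II, 4916179 to 4916562, minus strand, cluster A) stood at 601 ± 129 RPKM in the knockout and 805 ± 135 RPKM in wild type (SD, n = 3 each). Its deposited length equals its coding length, with no UTR, while most members have a longer one, and a shorter length raises a value per length. *msp-40* (cluster A) followed at 468 ± 93.9 RPKM in the knockout and 569 ± 100.2 RPKM in wild type, and *msp-81* (cluster F) at 465 ± 55.8 RPKM in the knockout and 546 ± 78.5 RPKM in wild type (SD, n = 3 each). *msp-31* was above *msp-40* in 6 of 6 libraries, by more than the spread between replicates. *msp-40* and *msp-81* differed by less than that spread.

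From *msp-40*, at a mean of 519 RPKM, down to *msp-10* at 83.0 RPKM, each member differed from the next by less than the larger of their pooled standard deviations. The pseudogene *msp-71* came next, at 44.3 RPKM, below *msp-10* in 6 of 6 libraries. After it stood *msp-42* at 26.2, *msp-74* at 25.5, *msp-63* at 14.4, *msp-52* at 9.19 and *msp-58* at 5.45 RPKM, of which *msp-74* and *msp-63* are listed as protein-coding. Of the 34 steps between neighbours in the order, 8 exceeded the pooled standard deviation, and 7 of these were among the 9 lowest members.

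The last members of the order were hardly read. *msp-32*, although listed as protein-coding, had 1, 0 and 1 reads in knockout replicates 1, 2 and 3, against 5, 1 and 1 reads in wild type replicates 1, 2 and 3. *msp-37* had 1, 1 and 2 reads in the knockout, against 2, 2 and 5 reads in wild type. At this depth a difference between genotypes was not detectable for either gene.

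**Figure D1:**
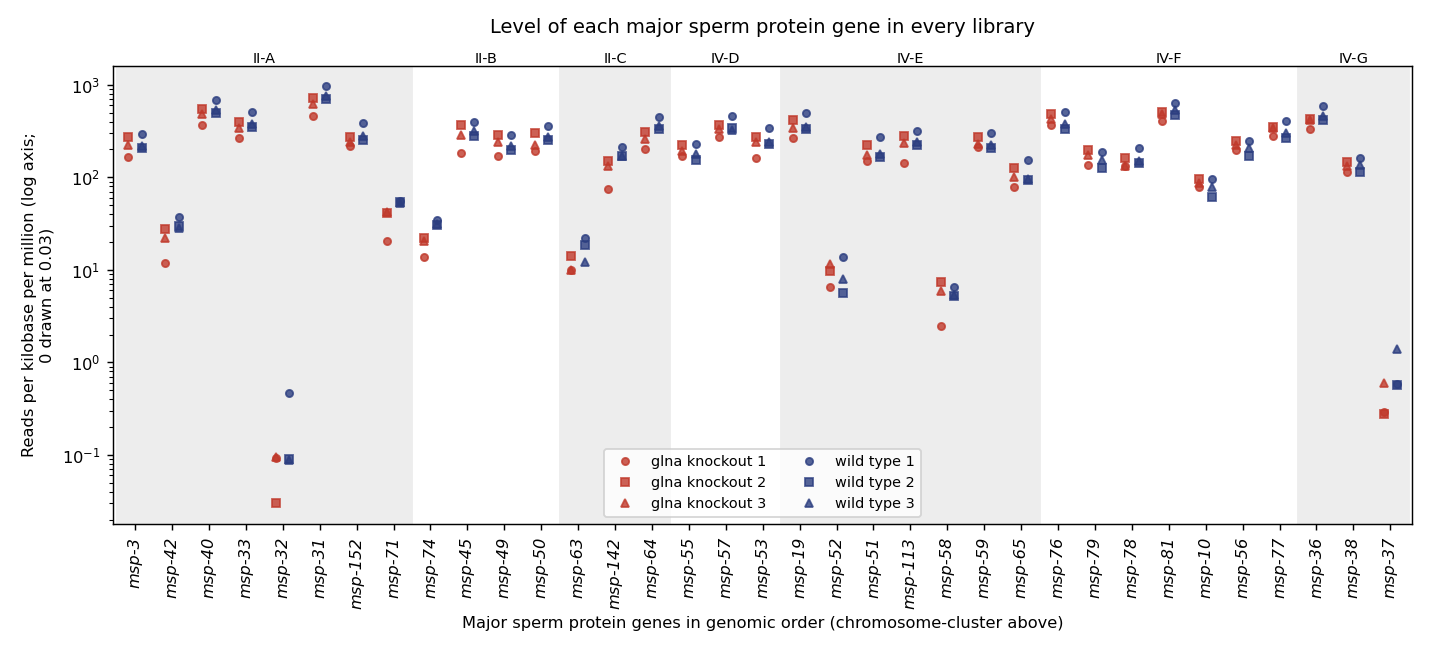
Level of each of the 35 members in every library, in reads per kilobase per 1e6 reads on a log axis, with genes in genomic order and knockout points left of wild-type points. Most members sit between 83.0 and 703 RPKM on average, while *msp-37* and *msp-32* lie near 0 in all 6 libraries.

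Summed over the 35 members, the family held 57837, 72627 and 59053 normalised counts (reads divided by the authors' size factor of each library) in knockout replicates 1, 2 and 3, against 85686, 60662 and 64712 in wild type replicates 1, 2 and 3. As a share of all assigned reads this was 0.263%, 0.382% and 0.332% in the knockout, against 0.458%, 0.321% and 0.350% in wild type. Wild type replicate 1 was the highest library, and the genotypes overlapped, since knockout replicate 2 lay above wild type replicates 2 and 3. The log2 ratio of the mean sums was -0.16. It became 0.01 when wild type replicate 1 was left out and 0.07 when both first replicates were left out. It was -0.10 on leaving out knockout replicate 1, -0.27 on leaving out knockout replicate 2 and -0.25 on leaving out wild type replicate 2.

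Members moved together from library to library. Of the 33 that passed the filter, 28 were highest in wild type replicate 1 and 5 in knockout replicate 2, while 16 were lowest in knockout replicate 1, 10 in wild type replicate 2 and 7 in knockout replicate 3. The median coefficient of variation of a member between replicates was 15.4% in the knockout and 18.6% in wild type, where counting error alone would give a median of 2.18%. Expressed as a share of the library's MSP sum, the same median was 7.32% in the knockout and 3.77% in wild type. That divisor is the members' own sum, which takes out their common spread by construction. The same values over all genes are not given here, so a spread common to all genes is not set apart.

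The series is about glutaminase loss and sperm function, and the comparison of its genotypes asked here whether the RNA of single MSP genes differed. Limma on log2(normalised count + 1), with Benjamini-Hochberg adjustment over all 15169 genes tested, called 0 members at an adjusted p under 0.05, against 0.356% of all genes. At an adjusted p under 0.1 it called 1 member, *msp-74*, against 5.39% of all genes. At an unadjusted p under 0.05 there were 5 members (15.2% of the 33), all lower in the knockout, against 22.6% of all genes, 11.8% lower and 10.9% higher. The groups did not overlap for 4 members, or 12.1% of those tested, against 30.5% of all genes; the 4 were lower in the knockout, as were 15.2% of all genes, while 0 members and 15.3% of all genes were higher. These shares lay near or under the background.

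Count tests on the recovered reads gave a similar picture. EdgeR called 0 members at an adjusted p under 0.05, against 0.0593% of all genes. At an unadjusted edgeR p under 0.05 there were 6 members, and no share of all genes at that threshold is given here. DESeq2 called *msp-74* alone, against 8.11% of all genes. The authors' deposited table also called *msp-74* alone, against 8.14% of all genes, 4.13% lower and 4.01% higher.

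Log2 fold changes, knockout over wild type, were negative for 23 of the 33 members (69.7%), against 48.8% of all genes. Their median was -0.16, and that of all genes was 0.01. The members' median rests on single libraries. It was -0.02 when wild type replicate 1 was left out, -0.05 when knockout replicate 1 was left out, and 0.12 when both were.

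*msp-74* (F09C12.7; chromosome II, 5115102 to 5115335, minus strand, cluster B), one of the members with the short coding sequence, had 71.4, 99.5 and 85.9 normalised counts in knockout replicates 1, 2 and 3, against 150, 136 and 135 in wild type replicates 1, 2 and 3. Every knockout library lay below every wild-type library. The log2 fold change was -0.72 (SE 0.18), with a limma adjusted p of 0.0896. The authors' deposited table gives *msp-74* an adjusted p of 0.0397. When 1 library was left out, the limma adjusted p ran from 0.0681 to 0.283.

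*msp-142* and *msp-64* belong to cluster C. *msp-142* (K05F1.2; chromosome II, 5797893 to 5798339, plus strand) had 738, 1290 and 1044 normalised counts in knockout replicates 1, 2 and 3, against 1780, 1428 and 1418 in wild type replicates 1, 2 and 3. *msp-64* (ZK1248.6; chromosome II, 5809924 to 5810342, minus strand) had 1885, 2438 and 1914 normalised counts in the knockout, against 3487, 2603 and 2748 in wild type. For both genes the highest knockout library, replicate 2, stayed below the lowest wild-type library. Log2 fold changes were -0.62 (SE 0.21) for *msp-142* and -0.50 (SE 0.16) for *msp-64*, with limma adjusted p of 0.142 and 0.129. The remaining gene of that cluster, *msp-63*, averaged 92.1 ± 18.9 normalised counts in the knockout and 136 ± 39.9 in wild type (SD, n = 3 each; log2 fold change -0.53, limma adjusted p = 0.269), and its groups overlapped.

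The rest of the members at an unadjusted p under 0.05 were pseudogenes of cluster A. *msp-71* (F59A6.8; chromosome II, 5012874 to 5013275, minus strand) had 184, 312 and 302 normalised counts in knockout replicates 1, 2 and 3, against 413, 409 and 395 in wild type, with no overlap. *msp-42* (F26G1.8; chromosome II, 4787159 to 4787520, plus strand) had 94.8, 190.3 and 143 normalised counts in the knockout, against 250.1, 204 and 190.1 in wild type. For *msp-42* the groups overlapped, because knockout replicate 2 reached the level of wild type replicate 3. The log2 fold changes were -0.65 for *msp-71* and -0.63 for *msp-42*, with limma adjusted p of 0.136 and 0.195.

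The pseudogenes of cluster E had few reads. *msp-52* (F36H12.6; chromosome IV, 5265592 to 5265825, plus strand) had 33.9, 43.04 and 48.2 normalised counts in the knockout, against 59.8, 24.6 and 34.7 in wild type. *msp-58* (ZK354.10; chromosome IV, 5308464 to 5308825, plus strand) had 19.9, 50.7 and 37.6 in the knockout, against 43.8, 35.5 and 35.6 in wild type. The groups overlapped in both, and the limma adjusted p were 0.822 and 0.794.

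The abundant members did not pass in either direction. *msp-31* had 3913, 5240 and 4254 normalised counts in knockout replicates 1, 2 and 3, against 6884, 5113 and 5334 in wild type replicates 1, 2 and 3. *msp-40* (C33F10.9; chromosome II, 4825380 to 4825845, plus strand) had 3754, 4875 and 4049 in the knockout, against 5942, 4311 and 4615 in wild type. *msp-33* (R05F9.8; chromosome II, 4892269 to 4892728, minus strand), also of cluster A, had 2713, 3463 and 2799 in the knockout, against 4413, 3017 and 3187 in wild type. In these 3 genes wild type replicate 1 was the highest library and knockout replicate 2 lay within the wild-type range. The log2 fold changes were -0.37, -0.22 and -0.23, with limma adjusted p of 0.222, 0.420 and 0.445.

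On chromosome IV, *msp-81* (K07F5.1; 9835997 to 9836451, minus strand, cluster F) had 4036, 4413 and 3908 normalised counts in the knockout, against 5366, 4085 and 4466 in wild type. *msp-36* (C04G2.4; 10095400 to 10095851, plus strand, cluster G) had 3277, 3667 and 3387 in the knockout, against 4947, 3576 and 3806 in wild type. *msp-76* (ZK1251.6; 9688982 to 9689436, plus strand, cluster F) had 3651, 4202 and 3442 in the knockout, against 4337, 2853 and 3187 in wild type. The groups overlapped in all 3 genes, with wild type replicate 1 the highest library. The log2 fold changes were -0.16 (SE 0.13) for *msp-81*, -0.24 (SE 0.14) for *msp-36* and 0.14 (SE 0.17) for *msp-76*, with limma adjusted p of 0.479, 0.340 and 0.645.

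**Figure D2:**
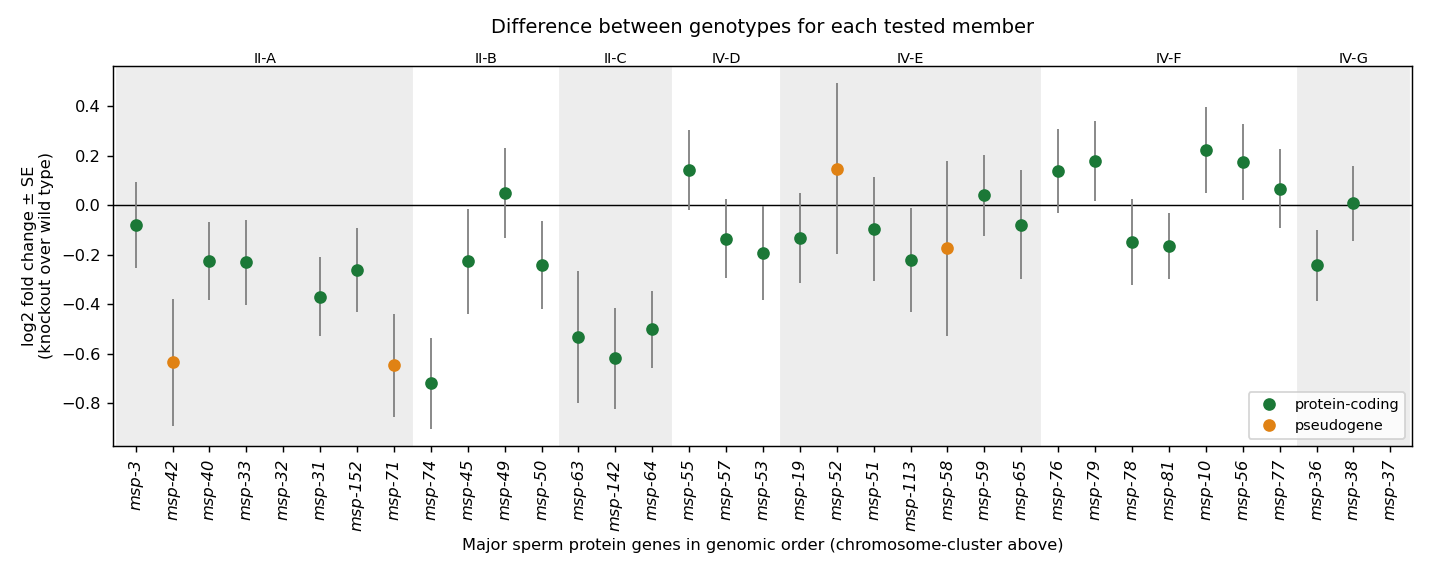
Log2 fold change of the knockout over wild type for the 33 members tested, in genomic order, with bars of 1 standard error from limma and points coloured by the deposited biotype. Members on chromosome II lie below 0 except *msp-49*, at 0.05, while those on chromosome IV lie on both sides of 0 between -0.24 and 0.22.

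By chromosome, the log2 fold change was negative for 13 of 14 tested members on chromosome II, where the median was -0.32, and all 5 members at an unadjusted p under 0.05 were there. On chromosome IV, 10 of 19 were negative, with a median of -0.08. All tested genes had a median of -0.01 on chromosome II and of -0.01 on chromosome IV. On chromosome II, 51.4% of the 2595 tested genes were negative, and 345 were lower at an unadjusted p under 0.05. On chromosome IV, 51.1% of 2594 were negative, and 354 were lower at that p. With protein-coding members alone the medians were -0.25 over 12 genes on chromosome II and -0.08 over 17 genes on chromosome IV. Leaving out wild type replicate 1 gave -0.17 on chromosome II and 0.14 on chromosome IV. The difference between the chromosomes was not tested, because members of one family are not replicates of a condition.

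By cluster, the median log2 fold change was -0.26 in A, -0.23 in B, -0.53 in C, -0.14 in D, -0.10 in E, 0.14 in F and -0.12 in G. In cluster A all 7 tested members were negative, and in cluster C all 3 were, between -0.62 and -0.50. In cluster F, 5 of 7 members were positive, with values from -0.16 for *msp-81* to 0.22 for *msp-10*. *msp-10* (K07F5.2; chromosome IV, 9837632 to 9838065, plus strand) had 758, 782 and 670 normalised counts in the knockout, against 788, 503 and 628 in wild type, with overlap.

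Other tested genes between the first and the last member of a cluster were set beside the members. Only genes of the name rule were left out of them. Other sperm genes and other genes with an MSP domain can be among them, so their medians are no background free of sperm genes. In cluster A there were 55 such genes, with a median log2 fold change of 0.02. Cluster C held 4, with a median of -0.05, and cluster F held 49, with a median of -0.02. In cluster B the 11 genes between the members had a median of -0.23, the same as the members. Cluster D held 1 such gene, at -0.37, below the members' median. In cluster E there were 15, with a median of -0.17, also below that of the members, and in cluster G there were 13, with a median of 0.15.

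The share of the family's count that a cluster takes does not depend on library scaling or on the total of MSP RNA. It does rest on how reads were divided among similar copies, which is uncertain. The values by chromosome were added after seeing the data. Chromosome II members took 38.9%, 42.0% and 41.0% of the MSP sum in knockout replicates 1, 2 and 3, against 43.96%, 44.9% and 44.5% in wild type replicates 1, 2 and 3. All knockout libraries lay below all wild-type libraries, with means of 40.7% ± 1.58 in the knockout and 44.5% ± 0.490 in wild type (SD, n = 3 each). The difference of the means, knockout minus wild type, was -3.82 percentage points, and it lay between -4.51 and -2.96 when each library was left out in turn. With 3 libraries against 3 an exact permutation test could not fall below a p of 0.10, so none is given.

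Cluster C took 4.69%, 5.29% and 5.13% of the sum in the knockout, against 6.35%, 6.88% and 6.58% in wild type. Cluster A took 25.1%, 25.8% and 25.9% in the knockout, against 27.7%, 28.1% and 27.8% in wild type. Cluster F went the other way, with 27.6%, 24.4% and 25.5% in the knockout, against 22.6%, 22.2% and 23.4% in wild type. Groups did not overlap in these 3 clusters or in D, where the means were 10.87% ± 0.0692 in the knockout and 10.44% ± 0.297 in wild type (SD, n = 3 each). They overlapped in B, E and G. Shares add up over the family, so they describe its make-up and not the amount of any cluster. As a sum of normalised counts, cluster C alone had groups that did not overlap, with 2713, 3840 and 3032 in the knockout, against 5438, 4175 and 4259 in wild type.

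**Figure D3:**
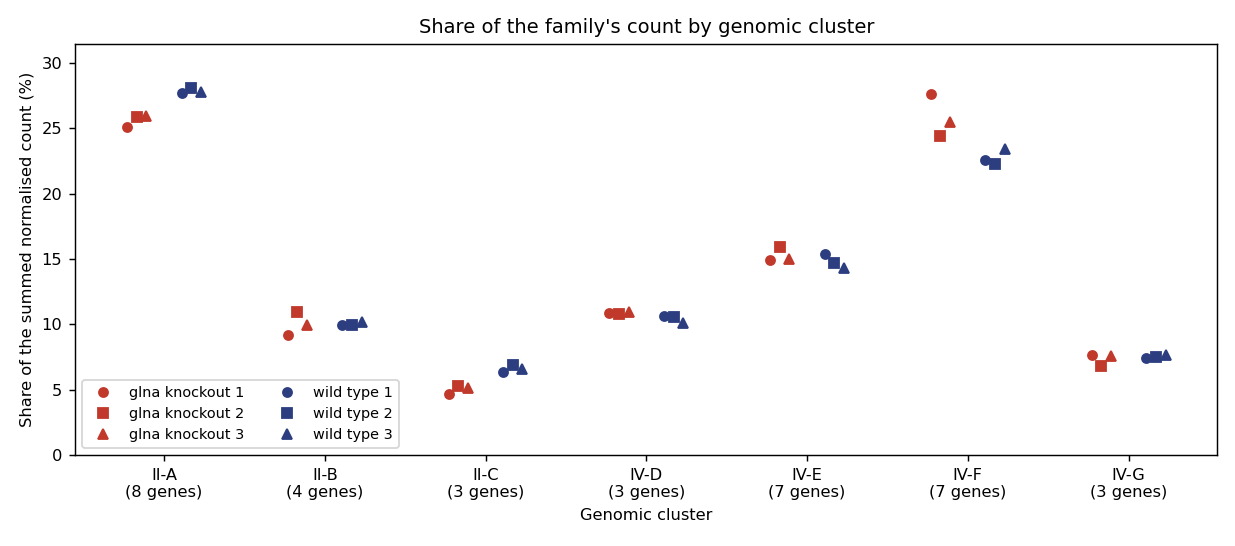
Share of the family's summed normalised count taken by each genomic cluster in every library, in percent, with knockout points left of wild-type points. Knockout libraries lie below wild type in A and C and above wild type in D and F.

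Among single members, the share of the MSP sum did not overlap between genotypes for 17 of 33. It was lower in the knockout for 8 (24.2%), of which 7 were on chromosome II, and higher for 9 (27.3%), of which 8 were on chromosome IV. Of all genes divided by the same MSP sum, 19.1% did not overlap, 6.12% lower and 12.95% higher. The divisor is built from the members themselves, which takes out their common spread, so the members' shares are a description of this scale. Limma on values scaled in this way called 0 members, against 1.80% of all genes, and *msp-74* was the only one lower at an unadjusted p under 0.05, against 4.66% of all genes.

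Genes that act with MSP in the sperm were taken from a list for fibrous body assembly and motility, of whose 16 symbols 10 were matched and tested. The symbols *mfp-1*, *mfp-2*, *mfp-3*, *mpop-1*, *mpak-1* and *spe-7* were not matched, so the list says nothing of those genes. Of the 10, 8 were negative, and their median log2 fold change was -0.44. Limma called 0 of them over all genes and had 7 lower at an unadjusted p under 0.05, against 11.8% of all genes. The authors' deposited table called 1, *fer-1*, as lower, against 4.13% of all genes. *fer-1*, which encodes a ferlin needed for fusion of the membranous organelles, had 424, 477 and 441 normalised counts in the knockout, against 706, 761 and 678 in wild type, with no overlap (log2 fold change -0.68, SE 0.12, limma adjusted p = 0.0547). *spe-6*, a casein kinase gene required for MSP to assemble into fibrous bodies, had 255, 471 and 413 normalised counts in the knockout, against 636, 560 and 565 in wild type, also with no overlap (limma adjusted p = 0.141). *spe-39* went the other way, with 1149, 748 and 812 in the knockout, against 729, 661 and 646 in wild type. It was higher without overlap (log2 fold change 0.39, limma adjusted p = 0.227).

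*spe-18*, required for fibrous body assembly as well, averaged 2542 ± 465 normalised counts in the knockout and 3235 ± 135 in wild type (SD, n = 3 each; limma adjusted p = 0.193). *gsp-3* and *gsp-4* encode sperm PP1 phosphatases that act in MSP-driven motility. *gsp-3* averaged 2260 ± 152 in the knockout and 2231 ± 248 in wild type, and *gsp-4* averaged 1854 ± 262 in the knockout and 1927 ± 206 in wild type (SD, n = 3 each), differences within the spread between replicates.

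Relatives outside the name rule, the *ssp* and *msd* genes and *vpr-1*, numbered 17, all tested. Of these, 15 were negative, and their median log2 fold change was -0.29. Limma called 0 of them and had 3 lower at an unadjusted p under 0.05, against 11.8% of all genes. The authors' deposited table called 1, *ssp-16*, as lower, against 4.13% of all genes. *ssp-16* averaged 465 ± 62.8 normalised counts in the knockout and 741 ± 78.7 in wild type (limma adjusted p = 0.0754), and *msd-4* averaged 1687 ± 229 in the knockout and 2076 ± 370 in wild type (SD, n = 3 each). *ssp-9*, a symbol carried by 2 gene IDs, had at its more abundant ID (T28H11.6) 229 ± 41.8 in the knockout and 358 ± 83.0 in wild type. *vpr-1*, the VAP homologue whose MSP domain is secreted by somatic cells, averaged 3725 ± 438 in the knockout and 3319 ± 58.3 in wild type (limma adjusted p = 0.439).

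Of the regulators of sperm fate and of sperm genes, 5 of 11 tested were negative, and the median log2 fold change was 0.03. The list was not divided into genes that promote and genes that oppose sperm fate, so these pooled values do not describe that fate. At an unadjusted p under 0.05 limma had 1 higher and 1 lower, against 10.9% and 11.8% of all genes. It called 0 over all genes. The authors' deposited table called 1, *gld-1*, as higher, against 4.01% of all genes. *gld-1*, which encodes a translational repressor of the germ line, averaged 12686 ± 4637 normalised counts in the knockout and 7424 ± 1092 in wild type, and *tra-1*, the terminal factor of sex determination, 1791 ± 277 in the knockout and 1566 ± 121 in wild type (SD, n = 3 each). *fog-3*, which is needed for sperm fate, had 45.6, 61.2 and 114 normalised counts in the knockout, against 105, 159 and 155 in wild type (limma adjusted p = 0.148), with knockout replicate 3 inside the wild-type range. *spe-44*, a transcription factor gene of the spermatocyte programme, averaged 331 ± 37.8 in the knockout and 418 ± 62.6 in wild type (SD, n = 3 each; limma adjusted p = 0.257).

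Reception of the MSP signal was covered by 14 genes, all tested. Of these, 3 were negative, and the median log2 fold change was 0.16. Limma called 0 and the authors' deposited table called 0. At an unadjusted limma p under 0.05, 1 gene, the gap junction gene *inx-22*, was higher, against 10.9% of all genes. *inx-22* averaged 502 ± 172 normalised counts in the knockout and 322 ± 52.4 in wild type (SD, n = 3 each; limma adjusted p = 0.185). *vab-1*, the Eph receptor to which MSP binds, averaged 1099 ± 248 in the knockout and 883 ± 44.7 in wild type (limma adjusted p = 0.313), and *mpk-1*, the MAP kinase gene that is activated in maturing oocytes, 2014 ± 245 in the knockout and 1645 ± 98.2 in wild type (limma adjusted p = 0.223). The most abundant genes of the list were *unc-43*, at 4210 ± 207 in the knockout and 4131 ± 351 in wild type, and *kin-1*, at 3637 ± 119 in the knockout and 3217 ± 192 in wild type (SD, n = 3 each).

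A further group of sperm-enriched genes (*nspd*, *ssq*, *sss*, *smz* and *spch*, 21 listed, 20 tested) was set beside the MSP genes. Its sum was 24725, 33184 and 25078 normalised counts in knockout replicates 1, 2 and 3, against 50514, 36470 and 35807 in wild type replicates 1, 2 and 3, with no overlap. The ratio of the MSP sum to it was 2.34, 2.19 and 2.35 in the knockout, against 1.70, 1.66 and 1.81 in wild type, so every knockout library lay above every wild-type library. Mean sums, knockout over wild type, stood at 0.676 for this group and 0.898 for the MSP genes. They stood at 0.871 for the assembly and motility list, 0.899 for the *ssp*, *msd* and *vpr-1* genes and 0.874 for all other genes with an MSP domain. The ratio therefore describes this group and not sperm genes at large. Of the 20 genes, 19 were negative, and the median log2 fold change was -0.74. By name, the median was -1.68 over 9 *nspd* genes, -0.65 over 4 *ssq* genes and 0.02 over 2 *sss* genes. Limma called 0 and had 13 lower at an unadjusted p under 0.05, against 11.8% of all genes. The authors' deposited table called 12 as lower, against 4.13% of all genes, and these were 9 *nspd* and 3 *ssq* genes. Its log2 fold changes were -0.27 for *smz-1*, -0.11 for *smz-2*, -0.57 for *spch-1*, -0.23 for *spch-2* and -0.18 for *spch-3*, none of them called.

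*nspd-7* averaged 183 ± 108 normalised counts in the knockout and 961 ± 282 in wild type, and *nspd-4* averaged 191 ± 59.7 in the knockout and 615 ± 192 in wild type (SD, n = 3 each; limma adjusted p = 0.0532 for both). *ssq-4* averaged 3706 ± 784 in the knockout and 6005 ± 1502 in wild type, and *ssq-2* averaged 4760 ± 668 in the knockout and 6208 ± 1278 in wild type (SD, n = 3 each; limma adjusted p = 0.121 and 0.240). The earlier results of these data already held lower sperm genes, so this list is no independent evidence of a direction.

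**Figure D4:**
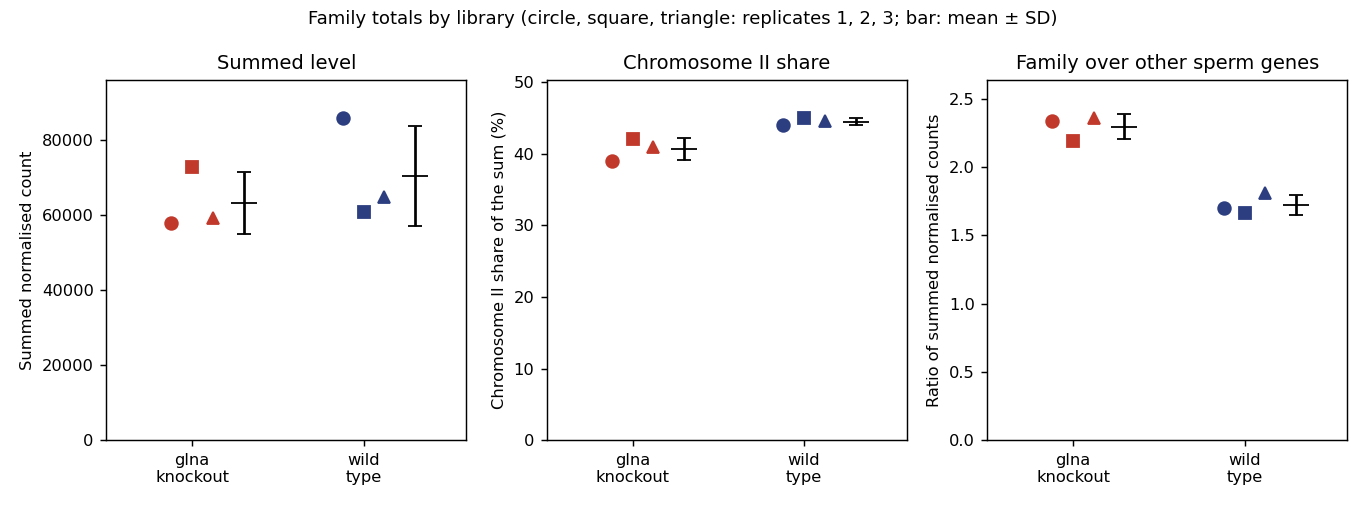
Summed normalised count of the MSP genes, their chromosome II share in percent and the ratio of their sum to that of the 21 *nspd*, *ssq*, *sss*, *smz* and *spch* genes, for each knockout and wild-type library, with the mean ± SD beside the points. The sums overlap between genotypes, while all knockout libraries lie below wild type in the chromosome II share and above it in the ratio.

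Markers of other tissues also differed between the libraries. The 12 oocyte genes listed had a summed level of 68962, 22333 and 24878 normalised counts in knockout replicates 1, 2 and 3, against 20650, 11149 and 12823 in wild type replicates 1, 2 and 3. Of the 12, 0 had a negative log2 fold change and the median was 1.15. Limma had 10 higher at an unadjusted p under 0.05, against 10.9% of all genes, and called 0 over all genes. Of the 12, 4 were called as higher in the authors' deposited table, against 4.01% of all genes. None of them was at 0 in any library. The MSP sum per oocyte sum was 0.839, 3.25 and 2.37 in the knockout, against 4.15, 5.44 and 5.05 in wild type, with no overlap.

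*meg-1* had 1019, 280 and 362 normalised counts in knockout replicates 1, 2 and 3, against 168, 42.4 and 84.3 in wild type replicates 1, 2 and 3 (limma adjusted p = 0.0789). *oma-2* had 2470, 825 and 980 in the knockout, against 695, 311 and 404 in wild type (limma adjusted p = 0.110). *cbd-1* averaged 9327 ± 8442 in the knockout and 2510 ± 787 in wild type, and *cpg-2* averaged 6895 ± 2887 in the knockout and 3373 ± 1432 in wild type (SD, n = 3 each). Knockout replicate 1 was the highest library for all 4 genes. When it was left out, the knockout mean was 321 for *meg-1*, 903 for *oma-2*, 4453 for *cbd-1* and 5269 for *cpg-2*.

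The summed intestine markers (5 genes) were 1142702, 443769 and 353249 normalised counts in the knockout, against 284972, 197344 and 222638 in wild type, with every knockout library higher. Most of that sum came from the yolk protein genes *vit-6* and *vit-2*, which were higher without overlap, with log2 fold changes of 1.23 and 1.44 (limma adjusted p = 0.137 and 0.123). *elt-2*, a transcription factor of the intestine, was lower without overlap, with a log2 fold change of -0.26 (limma adjusted p = 0.245). The summed muscle markers (3 genes) were 348331, 223255 and 198120 in the knockout, against 181175, 196992 and 197082 in wild type, also higher without overlap. Knockout replicate 3 lay only just above wild type replicate 3. Groups did not overlap for 1 of the 3 muscle genes, and 0 were at an unadjusted limma p under 0.05. Of all genes, 15.3% were higher and 15.2% lower without overlap, and 10.9% were higher at that p. The summed epidermis markers (4 genes) were 7517, 9977 and 14875 in the knockout, against 16162, 27305 and 24983 in wild type, lower without overlap. Of those 4 genes, *dpy-13* alone had groups that did not overlap, lower in the knockout, as were 15.2% of all genes. *dpy-13* had 5008, 7754 and 10022 in the knockout, against 13997, 21731 and 18951 in wild type (limma adjusted p = 0.0722). The part of the oocyte, intestine, muscle and epidermis values in the MSP values was not tested.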

How the data were processed

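Whole-body RNA was isolated with TRIzol, and per the labels' protocols a NEBNext Ultra kit was used for the libraries. The submitters' processing notes list the build WBcel235 and, with no role or order, DESeq2 1.20.0, featureCounts 1.5.0-p3, StringTie 1.3.3b, HISAT2 2.0.5 and CASAVA 1.8. The deposited signal columns are normalised counts, which the authors made by dividing reads by 1 size factor per library. The authors' own comparison supplied the deposited log2 fold changes (knockout over wild type), p-values and adjusted p-values, per the file headers. Dividing each signal column by its smallest step recovered whole reads: 100% of the values were multiples of it, within 0.01 read. For wild type replicate 1 that step is so close to 1 that an automatic check of recovered reads did not accept the column, although its values are multiples of the step. The count tests use that column and stand only as alternatives, and RPKM rests on the recovered reads too.

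Symbols came from the Ensembl 115 annotation and other gene tables, for 21059 of 21507 IDs. Limma 3.58.1 (R 4.3.3), with trend and empirical Bayes, was run on log2(normalised count + 1) for 15169 genes (filter: mean of at least 10), with Benjamini-Hochberg adjustment over all and a threshold of 0.05. This scale understates fold changes of low genes. EdgeR 4.0.16 (quasi-likelihood) and DESeq2 1.42.0 on recovered reads, quantile normalization, other filters and pseudocounts, a replicate block and leaving out each library were alternatives, and the tests were tried on simulated counts. Scaling to the MSP sum, protein-coding members alone, a threshold of 0.1, both first replicates left out and values by chromosome were added after seeing the data.

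Members and lists were chosen with earlier results of these data known. Named members were the 6 highest and 3 lowest tested, those at an unadjusted limma p under 0.05, those called in the authors' deposited table and those alone in a cluster (0 members). From each list, the 2 most abundant genes and the 2 of smallest p were named, except 1 that is not reported here. *msp-10*, *msp-32*, *msp-37*, *msp-49*, *msp-63*, *spe-6*, *spe-39*, *gsp-4*, *spe-44*, *vab-1*, *elt-2* and the *smz* and *spch* genes were named after their values were seen. Medians of the *nspd*, *ssq* and *sss* genes were added after that too. Markers of intestine, muscle and epidermis served to check the tissue: 2 of 5, 0 of 3 and 4 of 4 were negative, with median log2 fold changes of 0.01, 0.38 and -0.71; the intestine median lies far below the values of *vit-2* and *vit-6*, which the report gives. Marker means with knockout replicate 1 left out were added after seeing the data. Sequences of the members were not analysed here.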

Additional observations from a re-analysis of the deposited data

How the results depend on the processing

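The count of MSP members called was 0 in limma and 0 in edgeR. At an unadjusted p under 0.05 there were 5 in limma, against 22.6% of all genes, and 6 in edgeR. No share of all genes is given for that edgeR threshold. The count was 1, *msp-74*, in the authors' deposited table and in DESeq2 on recovered reads, both with a log2 fold change of -0.71. Limma at an adjusted p under 0.1 also gave 1, *msp-74*. The count was 0 under quantile normalization, the other filters and pseudocounts, and the scaling to the MSP sum. Leaving out each library in turn gave counts from 0 to 0, a family median log2 fold change from -0.27 to -0.02, medians from -0.46 to -0.17 on chromosome II and from -0.21 to 0.14 on chromosome IV, a log2 ratio of the MSP sums from -0.27 to 0.01, and a difference in chromosome II share from -4.51 to -2.96 points. With both first replicates left out, chosen after seeing the data, the family median was 0.12, the chromosome IV median 0.19 and the chromosome II median -0.12. A gap of 50000 bases gave 12 clusters and one of 250000 bases gave 4, by construction. Of 206 values of named members under other settings, 2 changed sign. *msp-58* had a log2 fold change of 0.19 when knockout replicate 1 was left out (range over single libraries left out -0.46 to 0.19), and *msp-52* one of -0.14 when wild type replicate 2 was left out (-0.14 to 0.48). The cause was not tested.

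It was not established whether the replicate numbers pair the samples. Correlations of deviations from the group means were 0.197, -0.0246 and 0.288 for numbers 1, 2 and 3. Knockout replicates 1 and 3 correlated best with the wild-type library of the same number. Knockout replicate 2 correlated best with wild type replicate 1, at 0.134. With the replicate block, 0 members were called, while calls among all genes numbered 688, against 54 without it. At an unadjusted p under 0.05 the block gave 6 members, with no share of all genes given here. The median log2 fold change of the members was -0.16 with the block, and the log2 ratio of the sums was -0.15. The planned comparison of member sequences was not run. At most 5 reads per library limit *msp-32* and *msp-37*.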

Other observations

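The deposited table assigns the MSP domain to 77 genes outside the name rule, a list chosen after the files had been seen. Of these, 70 passed the filter, 17 of which are the *ssp*, *msd* and *vpr-1* genes described above. Of the 70, 55 were negative, and the median log2 fold change was -0.18. Limma called 0 of them over all genes and had 13 lower at an unadjusted p under 0.05, against 11.8% of all genes. The authors' deposited table called 6 as lower, against 4.13% of all genes. Groups did not overlap for 19 that were lower and 1 that was higher, against 15.2% and 15.3% of all genes. ZK1307.3 had 60.8, 66.0 and 76.2 normalised counts in knockout replicates 1, 2 and 3, against 157, 105 and 124 in wild type replicates 1, 2 and 3, with no overlap (limma adjusted p = 0.0789). F21H7.5, the second most abundant of them, averaged 2483 ± 255 in the knockout and 2342 ± 382 in wild type (SD, n = 3 each). The summed level of the 77 genes was 28887, 34295 and 29562 normalised counts in knockout replicates 1, 2 and 3, against 40270, 32621 and 33265 in wild type replicates 1, 2 and 3. The genotypes overlapped, and wild type replicate 1 was the highest library, as it was for the MSP genes.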
